A study of Mus musculus with 6 samples.

Results

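Basement membranes are thin sheets of matrix that endothelial cells and pericytes lay down around a vessel, and 10 genes that encode their main components in vessels were examined in mouse retinal endothelial cell preparations, by name, among the 24421 rows of the expression table. The genes were Col4a1, Col4a2, Col18a1, Lama4, Lama5, Lamb1, Lamc1, Nid1, Nid2 and Hspg2, and all 10 were present in the table. All 10 also passed the filter used for testing, which was at least 1 FPKM in at least 3 libraries. FPKM scales the fragments of a gene to its length and to the total of the library. A comparison between genes therefore rests on the lengths used, and one between libraries on their make-up of cells.

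The preparations came from retinas of C57BL/6 pups at postnatal day 7. Of the 6 libraries, 3 were from mutant pups (Anxa3 fl/fl;Tie2-Cre) and 3 from control pups (Anxa3 fl/fl), so that floxed alleles of Anxa3, the gene of annexin A3, were carried by both groups and Cre by the mutants alone. Tie2-Cre is active in endothelial cells and also in blood-lineage cells, and since only mutants carry it, effects of Cre and of losing Anxa3 cannot be told apart. The comparison was made in search of genes affected by loss of Anxa3 and linked to the crossing of arteries and veins. The labels do not say if pups were pooled or if libraries are from separate pups, and p-values refer to the spread among the 6 libraries, which may be technical.

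In a vessel basement membrane, type IV collagen forms a covalently crosslinked network and laminin trimers form a second, cell-bound network. Nidogens bridge both, and the heparan sulfate proteoglycans perlecan and collagen XVIII fill the sheet and hold growth factors. In the developing retina, sprouting endothelial cells deposit this matrix together with the pericytes they recruit, and empty sleeves of it remain where vessels regress.

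Col4a1 and Col4a2 are shown at sequence level because they lie head to head and their levels stayed in nearly fixed proportion across the libraries. The profiles of Lamb1 and Nid2, on chromosomes 12 and 14, were about as alike, at 0.04 for each pair by the measure given below. A link between the shared bases and the levels was not tested. Both collagen genes are on chromosome 8 of GRCm38, Col4a1 at chr8:11198423-11312826 on the minus strand and Col4a2 at chr8:11312805-11449287 on the plus strand. Their RefSeq promoter windows on GRCm38.p6 run from 250 bases before to 50 bases after each start, at chr8:11312777-11313076 for Col4a1 and chr8:11312555-11312854 for Col4a2. The start sites lie 21 bases apart, and each lies inside the other gene, so the annotated genes overlap at their 5′ ends. Capitals mark the 78 bases that both windows contain, each window being written 5′ to 3′ on its own gene's strand.
Col4a1: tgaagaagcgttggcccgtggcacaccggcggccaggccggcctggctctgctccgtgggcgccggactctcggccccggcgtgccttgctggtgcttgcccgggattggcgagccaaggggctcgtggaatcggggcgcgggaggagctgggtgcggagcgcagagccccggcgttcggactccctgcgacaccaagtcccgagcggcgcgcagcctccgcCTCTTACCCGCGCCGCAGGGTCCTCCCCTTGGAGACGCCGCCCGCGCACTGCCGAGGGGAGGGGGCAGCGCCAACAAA
Col4a2: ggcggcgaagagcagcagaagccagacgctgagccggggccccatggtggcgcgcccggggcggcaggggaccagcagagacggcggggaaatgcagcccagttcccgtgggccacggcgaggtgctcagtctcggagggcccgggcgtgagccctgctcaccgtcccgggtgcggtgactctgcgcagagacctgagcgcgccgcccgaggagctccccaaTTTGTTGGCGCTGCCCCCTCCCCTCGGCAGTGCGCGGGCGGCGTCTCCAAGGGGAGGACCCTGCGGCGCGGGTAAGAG

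The windows had a GC content of 74% for Col4a1 and 73.7% for Col4a2, against a median of 52.7% over all 32851 windows of that length. A GC box, searched as GGGCGG on both strands, occurred 1 time in the Col4a1 window and 3 times in the Col4a2 window, and 35.7% of all windows held at least 1. The match at 9 bases past the Col4a1 start and the match at 7 bases past the Col4a2 start are the same site in the shared bases, read from opposite strands. A CCAAT box, searched as CCAAT on both strands, occurred 1 time in each window, and 37.4% of all windows held at least 1. No match to a TATA box (TATAAA, in 13.6% of all windows) or an AP-1 site (TGANTCA, in 7.81%) lay in either window, and no matches of different motifs shared a base. RefSeq windows were also matched for Lama5, Hspg2, Col18a1, Lamb1 and Nid1, which makes 7 of the 10 genes. Their GC content was 59.7% to 72.7%, counting both Col18a1 windows.

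The libraries held 21381419 to 30855465 reads in mutants and 24095896 to 30896903 reads in controls, as recovered from the FPKM values. Anxa3, the targeted gene, measured 9.78, 12.5 and 15.1 FPKM in mutant replicates 1, 2 and 3, against 18.7, 17.7 and 43.4 FPKM in control replicates 1, 2 and 3. No mutant library reached the lowest control library, with a two-sided exact permutation p = 0.1, the smallest that 20 arrangements allow. In the limma test used below for all genes, the log2 difference of Anxa3 was -0.93, with an unadjusted p of 0.020. Its adjusted p was 0.9998, so that test did not call even the targeted gene. All 20 pan-endothelial markers were measured above the filter, at a mean of 4.88 to 5.26 in mutants and 4.79 to 5.91 in controls on the log2(FPKM + 1) scale. The 12 photoreceptor markers stood higher on the same scale, at 8.53 to 8.90 in mutants and 8.22 to 8.83 in controls, so RNA of neural retina was also measured in these endothelial preparations. Control replicate 3 stood apart, with the highest pan-endothelial and the lowest photoreceptor level of the 6 libraries. In such bulk samples, fewer cells of a type and less RNA per cell cannot be told apart.

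None of the 10 basement membrane genes passed the test for a difference between mutant and control libraries. Every one of them was highest in control replicate 3 and next highest in mutant replicate 3. For all 10 genes the mutant libraries overlapped the range of the controls, whereas 4.35% of the 13619 genes tested had groups that did not overlap, 1.56% lower and 2.79% higher in mutants. The limma test across all genes, with Benjamini-Hochberg adjustment, called 0 of the 10 at an adjusted p under 0.05, where 0% of all genes were called. At an unadjusted p under 0.05 it also found 0 of the 10, against 1.21% of all genes, and limma voom on the recovered reads gave 0 at both thresholds.

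The type IV collagen chains were the most abundant of the set. Col4a1 measured 256, 214 and 321 FPKM in mutant replicates 1, 2 and 3, against 214, 226 and 431 FPKM in control replicates 1, 2 and 3. Col4a2 measured 149, 131 and 188 FPKM in the mutants, against 132, 133 and 270 FPKM in the controls. In both genes the groups overlapped, with control replicate 3 above all mutants and the other controls within or near their range. Group means for Col4a1 were 263 ± 53.7 FPKM in mutants and 290 ± 122 FPKM in controls, and for Col4a2 156 ± 28.8 FPKM in mutants and 178 ± 79.6 FPKM in controls (SD, n = 3 each). On the log2(FPKM + 1) scale, the difference was -0.08 for Col4a1, with a 95% confidence interval from -0.75 to 0.58, and -0.12 for Col4a2, with an interval from -0.78 to 0.54. These intervals come from the limma fit, whose adjusted p was 0.9998 for each of the 10 genes.

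Col18a1, at chr10:77052178-77166548 on the minus strand, encodes collagen XVIII, a proteoglycan whose C-terminal fragment is endostatin. It measured 38.7, 34.1 and 47.9 FPKM in mutants, against 38.4, 39.0 and 70.1 FPKM in controls. Its log2 difference of -0.24 was the most negative of the 10, with a 95% confidence interval from -0.79 to 0.31. Hspg2, at chr4:137468769-137570630 on the plus strand, encodes perlecan, the large heparan sulfate proteoglycan of the sheet. Values for Hspg2 were 40.0, 41.8 and 48.0 FPKM in mutants, against 35.7, 37.2 and 93.6 FPKM in controls, so that the mutants all lay between the other controls and control replicate 3. Hspg2 had the widest spread in controls of the set, a coefficient of variation of 59.5%, beside 9.69% in mutants. Its log2 difference was -0.21, with an interval from -0.98 to 0.56.

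Laminins are trimers of an alpha, a beta and a gamma chain. Lama4 (chr10:38965515-39110188, plus strand) and Lama5 (chr2:180176373-180225859, minus strand) encode the alpha chains of the endothelial laminins. Lama4 measured 42.0, 45.2 and 52.7 FPKM in mutants, against 42.3, 37.8 and 83.2 FPKM in controls. Lama5 was the lowest of the set, at 5.35, 5.68 and 6.23 FPKM in mutants, against 4.43, 4.87 and 9.86 FPKM in controls. For Lama5 every mutant library lay above control replicates 1 and 2 and below control replicate 3. Log2 differences were -0.14 for Lama4, with an interval from -0.76 to 0.49, and -0.06 for Lama5, with an interval from -0.64 to 0.52.

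Lamb1 (chr12:31265234-31329644, plus strand) and Lamc1 (chr1:153218922-153332786, minus strand) encode the beta and gamma chains that pair with them. Lamb1 measured 39.3, 37.9 and 48.4 FPKM in mutants, against 36.1, 36.1 and 76.7 FPKM in controls. Lamc1 measured 41.2, 37.1 and 44.1 FPKM in mutants, against 37.2, 37.9 and 70.6 FPKM in controls. Both genes showed the same order of libraries as the collagens at the top, with control replicate 3 first and mutant replicate 3 next. Their log2 differences were -0.15, with an interval from -0.79 to 0.49, for Lamb1 and -0.18, with an interval from -0.72 to 0.35, for Lamc1.

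The nidogens Nid1 (chr13:13437551-13512269, plus strand) and Nid2 (chr14:19751265-19811787, plus strand) link laminin to type IV collagen. Nid1 measured 54.9, 48.4 and 56.8 FPKM in mutants, against 47.0, 45.5 and 95.1 FPKM in controls. Nid2 was less abundant, at 26.7, 23.5 and 32.0 FPKM in mutants, against 22.9, 24.0 and 51.0 FPKM in controls. All mutant values of Nid1 lay above control replicates 1 and 2, and all of both genes lay below control replicate 3. Their log2 differences were -0.14, with an interval from -0.75 to 0.46, for Nid1 and -0.16, with an interval from -0.82 to 0.50, for Nid2.

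**Figure D1:**
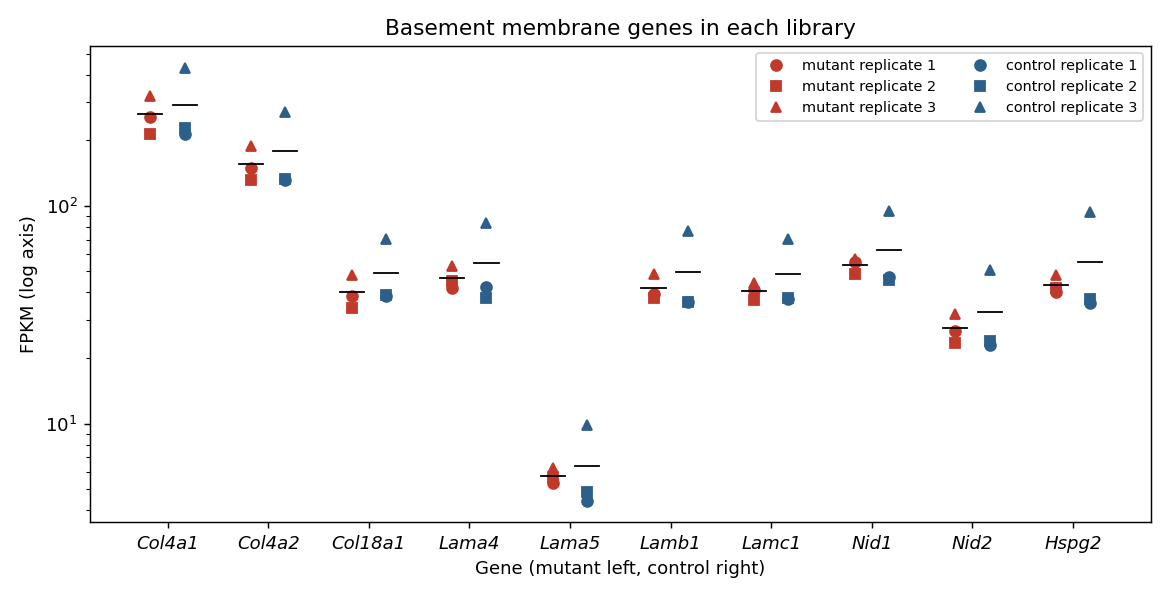
FPKM on a log axis for the 10 basement membrane genes, with mutant libraries in red at the left and control libraries in blue at the right of each gene, the marker shape giving the replicate and the black bar the group mean of 3 libraries. In all 10 genes control replicate 3 is the highest library, from 9.86 FPKM for Lama5 to 431 FPKM for Col4a1.

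The sign of every difference rested on control replicate 3. Its FPKM was 1.81 to 2.57 times the mean of control replicates 1 and 2 across the 10 genes, and 11.9% of all genes had a value at least 1.5 times as high there. With all libraries, 10 of 10 genes had a negative log2 difference, with a median of -0.15, while 52.5% of all genes tested were lower in mutants and their median was -0.0066. Without control replicate 3, 10 of 10 had a positive log2 difference, from 0.04 for Col18a1 to 0.26 for Lama5 with a median of 0.21, while 49.4% of 13490 genes were higher. Even then no limma call was made (adjusted p = 0.999 for each, with 0% of genes called), and each 95% confidence interval contained 0. The interval of Lama5 ran from -0.03 to 0.54 and that of Hspg2 from -0.02 to 0.50. Without mutant replicate 2, the log2 difference of Col4a1 was 0.06. The turn was not particular to the basement membrane genes, since the 20 pan-endothelial markers showed it too. All 20 were lower in mutants with all libraries, at a median of -0.15, and all 20 higher without control replicate 3, at a median of 0.16.

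**Figure D2:**
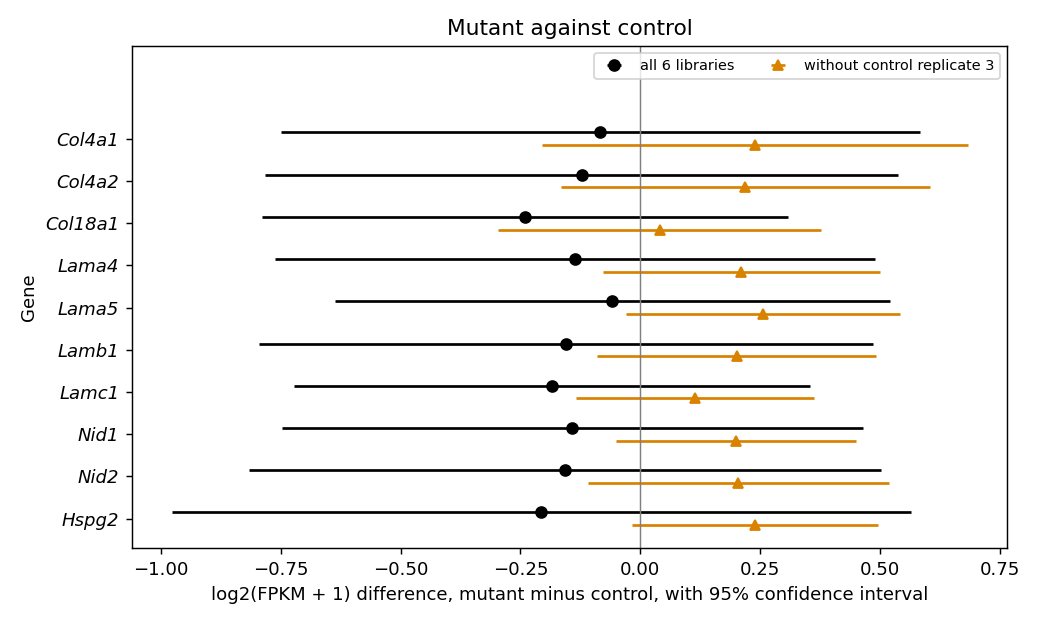
Log2(FPKM + 1) difference, mutant minus control, with 95% confidence intervals from the limma fit, for all 6 libraries (black circles) and without control replicate 3 (orange triangles). All 10 points lie below 0 with 6 libraries and above 0 without control replicate 3, and all 20 intervals contain 0.

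The labels also give each library a letter from A to F, without saying what the letters mean. For a further look the libraries were cut into 2 letter sets, a split that no label states. A to C holds mutant replicate 1 and control replicates 1 and 2, and D to F holds mutant replicates 2 and 3 and control replicate 3. Among A to C, the mutant library was above both controls for 8 of the 10 genes, and log2 differences ran from -0.0011 for Col18a1 to 0.24 for Nid1. Among D to F, both mutants were below the control for all 10, and differences ran from -1.04 for Hspg2 to -0.64 for Lama5. The control there is control replicate 3, the highest library for all 10 genes, so that order was fixed by the split and is no separate result. Each set holds a single library of one genotype, so no test was made within it. With the letter sets as a term in limma, the differences ran from -0.46 for Hspg2 to -0.24 for Lama5, and 0 of the 10 genes and 0 of all genes were called.

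Together the 10 genes took 0.469%, 0.434% and 0.609% of the recovered reads in mutant replicates 1, 2 and 3, against 0.418%, 0.430% and 0.874% in control replicates 1, 2 and 3. The Wilson 95% interval was from 0.606% to 0.612% in mutant replicate 3 and from 0.870% to 0.877% in control replicate 3, and such intervals cover counting error only. The share in control replicate 3 thus lay outside the counting error of all the others. Between 1283 reads, for Lama5 in mutant replicate 1, and 73819 reads, for Col4a1 in control replicate 3, lay behind each value. Col4a1 and Col4a2 made up 52.6% to 57.5% of the reads of the set in mutants and 52.5% to 55.0% in controls.

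The order of the levels was alike in all 6 libraries at both ends. Col4a1 came first, Col4a2 next and then Nid1, while Nid2 and Lama5 closed the order in every library. Between them, Lama4, Hspg2, Lamb1, Lamc1 and Col18a1 changed places from library to library. Lamb1 exceeded Lamc1 in 3 of 6 libraries, Lamc1 exceeded Col18a1 in 3 of 6 and Hspg2 exceeded Lamb1 in 4 of 6. Only the steps from Col4a2 to Nid1 and from Nid2 to Lama5 separated the full ranges of neighbouring genes, at 2.71 to 3.30 times and 4.14 to 5.18 times within a library. Levels depend on the gene lengths behind the deposited FPKM, which were 6046 bases for Lama4 and 5778 bases for Lamb1. GENCODE's joined exons come to 12068 bases for Lama4 and 9917 bases for Lamb1, and with these the level would be 0.501 times as high for Lama4 and 0.583 times for Lamb1, against 0.825 to 1 times for the other genes. With those lengths, Lama4 would rank from 7 to 9 and Lamb1 from 8 to 9 among the 10 genes. As deposited, Lama4 ranked from 4 to 6 and Lamb1 from 5 to 8. Hspg2 would share ranks 3 and 4 with Nid1. Nid2, which ranked 9 as deposited, would rank from 7 to 8, so its place near the end of the order depends on length.

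Proportions between partner chains varied far less than the levels. The ratio of Col4a1 to Col4a2, whose chains assemble into a trimer with more of the Col4a1 product, was 1.71, 1.63 and 1.71 in mutants, against 1.62, 1.70 and 1.59 in controls. Its highest value was 1.07 times its lowest, although Col4a1 itself ranged from 214 to 431 FPKM. Lama4 exceeded Lama5 in every library, at 7.84, 7.97 and 8.45 times in mutants, against 9.55, 7.75 and 8.44 times in controls. For Lamb1 over Lamc1, the ratio averaged 1.02 ± 0.0718 in mutants and 1.002 ± 0.0722 in controls (SD, n = 3 each). These ratios carry the same dependence on length. With GENCODE's lengths Lamb1 over Lamc1 would be 0.648 in mutants and 0.634 in controls, and Lama4 over Lama5 4.05 in mutants and 4.30 in controls.

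Nid1 stood over Nid2 by a ratio of 1.96 ± 0.161 in mutants and 1.94 ± 0.0988 in controls (SD, n = 3 each). Lamb1 stood over Lamb2, the alternative beta chain, by 3.91 ± 0.0760 in mutants and 4.26 ± 0.436 in controls (SD, n = 3 each), or by 2.46 in mutants and 2.68 in controls with GENCODE's lengths. Col18a1 over Hspg2 was the most variable of the 6 ratios, at 0.966, 0.814 and 0.998 in mutants, against 1.08, 1.05 and 0.750 in controls. Here too control replicate 3 lay at an end of the range, with more Hspg2 relative to Col18a1. Two-sided exact permutation tests of the 6 log2 ratios gave p from 0.2 to 0.9 and an adjusted p of 0.9 for each, in a design whose smallest possible p is 0.1. The log2 difference was 0.04 for Col4a1 over Col4a2, -0.08 for Lama4 over Lama5, 0.03 for Lamb1 over Lamc1, 0.02 for Nid1 over Nid2, -0.12 for Lamb1 over Lamb2 and -0.04 for Col18a1 over Hspg2. Signs turned for Lamb1 over Lamc1 without mutant replicate 3 (-0.02) or control replicate 2 (-0.0043), and for Nid1 over Nid2 without mutant replicate 1 (-0.02), mutant replicate 2 (-0.02) or control replicate 3 (-0.0089). They also turned for Col18a1 over Hspg2 without mutant replicate 2 (0.05), control replicate 1 (0.06) or control replicate 2 (0.04).

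**Figure D3:**
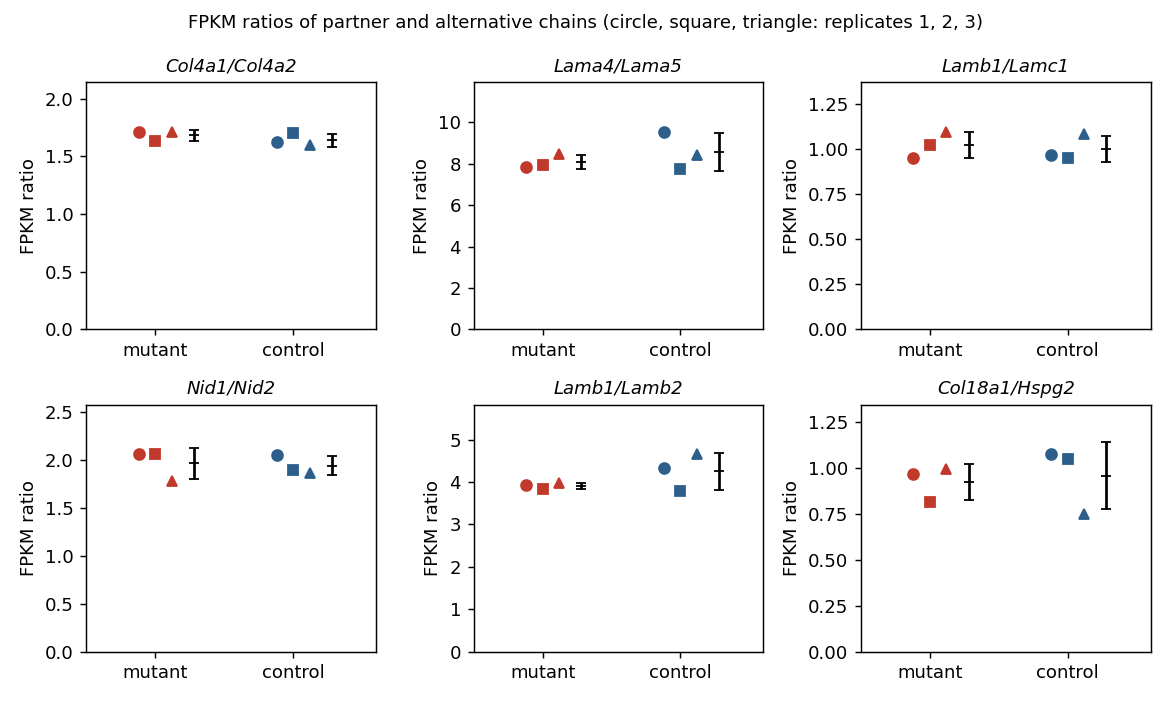
FPKM ratios between chains in each library, mutants in red and controls in blue, with circle, square and triangle for replicates 1, 2 and 3 and the mean ± SD of 3 libraries in black, on axes that start at 0. The ratio of Col4a1 to Col4a2 stays between 1.59 and 1.71, and that of Col18a1 to Hspg2 ranges from 0.750 to 1.08.

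The profile of the set over the libraries was set beside those of cell type markers, after each profile had been centred on its own mean of log2(FPKM + 1). The root mean square difference from the mean of the 10 genes, over the 6 libraries, was 0.08 for the pan-endothelial list, 0.16 for the pericyte and smooth muscle list and 0.30 for the fibroblast list. It was 0.42 for Muller glia and astrocyte markers and 0.56 for photoreceptor markers, against 0.40 for the median of 10088 genes with a mean of at least 5 FPKM. List means hold every listed gene, also those near 0 FPKM, which hardly move on this scale and flatten a profile. Such genes were Cnn1 in the pericyte and smooth muscle list and Dcn and Lum in the fibroblast list, and none was pan-endothelial. Their part in the distances was not tested. Among the 10 genes, Lamb1 lay nearest to the mean of the set, at 0.02, and Hspg2 farthest, at 0.12. Col4a1 and Col4a2 were each other's nearest gene at 0.04, as were Lamb1 and Nid2 at 0.04 and Lamc1 and Nid1 at 0.05. These distances are descriptions over libraries that share their endothelial content and depth across all genes.

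Relative to the pan-endothelial mean of the same library, the genes moved much less. Lama4 stood 0.55, 0.51 and 0.48 above that mean in mutants, against 0.52, 0.49 and 0.49 in controls, on the log2(FPKM + 1) scale. Its range over the 6 libraries was 0.07 relative to the endothelial mean and 1.12 without it. For the other 9 genes the relative range ran from 0.20 for Lamb1 to 0.43 for Col18a1, and the range without it from 0.91 for Lamc1 to 1.37 for Hspg2. Hspg2 stood at 0.48, 0.40 and 0.35 in mutants, against 0.28, 0.47 and 0.66 in controls. Fitted with the endothelial mean subtracted from every library, 5 of the 10 log2 differences were negative and 5 positive, from -0.09 for Col18a1 to 0.09 for Lama5, and limma called 0 of them.

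**Figure D4:**
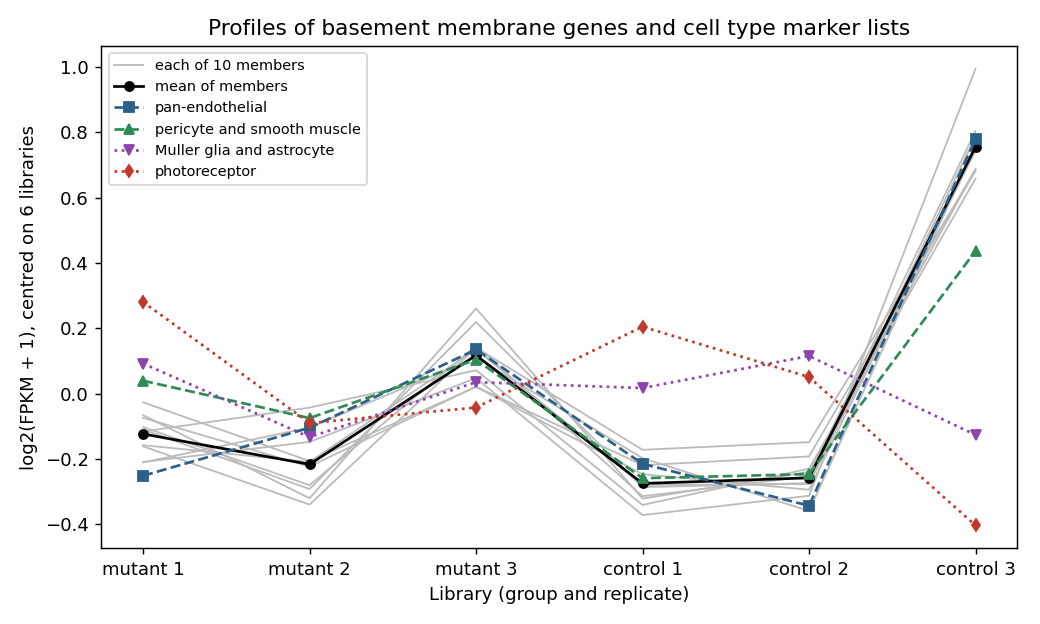
Log2(FPKM + 1) centred on the 6 libraries, with the 10 basement membrane genes as grey lines, their mean in black and the means of 4 marker lists in colour, mutants at the left and controls at the right. The mean of the 10 genes reaches 0.76 in control replicate 3, where the pan-endothelial mean reaches 0.78, the pericyte and smooth muscle mean 0.44 and the photoreceptor mean -0.40. List means include genes near 0 FPKM, such as Cnn1 in the pericyte and smooth muscle list.

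Pericyte and smooth muscle markers, whose cells also make basement membrane, moved with control replicate 3 as well. Of 15 such genes, 13 were tested and 11 were at least 1.5 times as high there as in the other controls, with a median of 1.73 times, beside 2.09 times for pan-endothelial and 2.07 times for the 10 basement membrane genes. Their summed level was 273 to 323 FPKM in mutants and 233 to 423 FPKM in controls, and Cnn1 was under 1 FPKM in every library. Between the groups, with all libraries, 10 of the 13 tested were higher and 3 lower in mutants, at a median log2 difference of 0.06. The 10 basement membrane genes were all lower in that comparison. Without control replicate 3, both lists went the same way. All 13 pericyte and smooth muscle genes were then higher in mutants, at a median of 0.31, and all 10 basement membrane genes, at a median of 0.21. The summed pan-endothelial level was 774 to 1063 FPKM in mutants and 723 to 1637 FPKM in controls. Fibroblast markers were low, at 20.1 to 28.1 FPKM summed over 6 genes in mutants and 19.99 to 26.5 FPKM in controls, with Dcn and Lum under 1 FPKM everywhere. Lens markers, whose cells make a thick capsule of the same proteins, summed to 3.50 to 8.94 FPKM over 8 genes in mutants and 4.73 to 6.05 FPKM in controls.

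Pigment epithelium markers summed to 3.31 to 10.2 FPKM over 8 genes in mutants and 4.21 to 13.4 FPKM in controls, with Rpe65, Best1, Lrat, Mitf and Tyr under 1 FPKM everywhere. In control replicate 3, microglia and macrophage markers were at 0.71 times the other controls as a median over 9 genes, and Muller glia and astrocyte markers at 0.76 times over 10 genes. The part of any of these cells in the levels of the basement membrane genes was not tested.

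**Figure D5:**
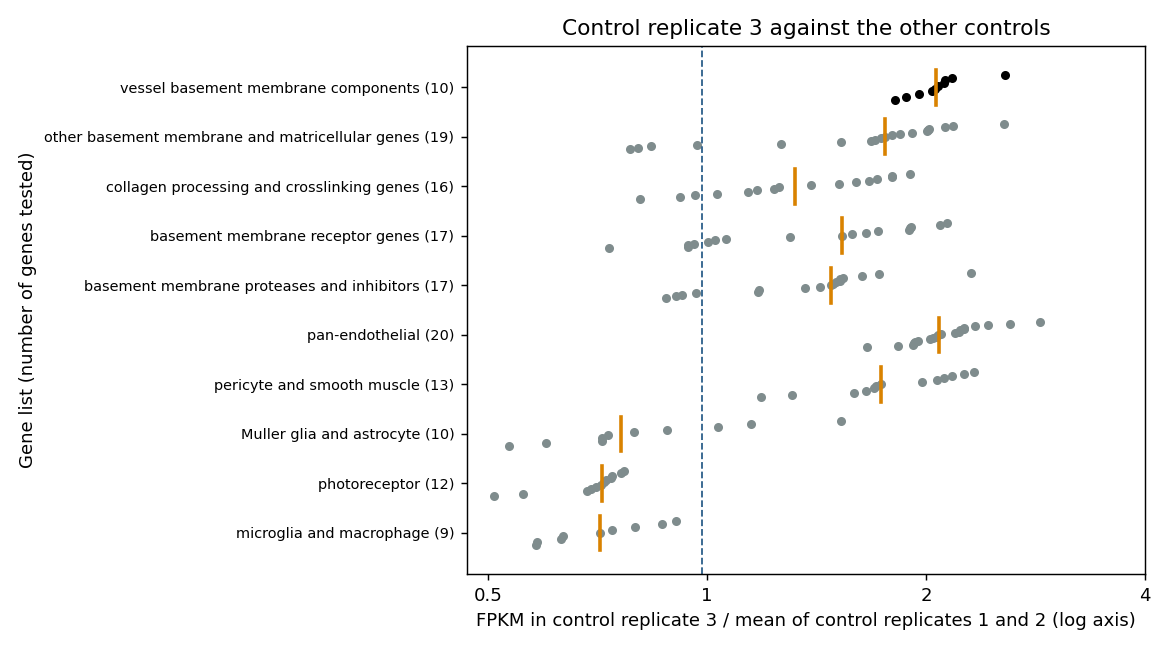
FPKM in control replicate 3 divided by the mean of control replicates 1 and 2, on a log axis, for each tested gene of 10 lists (points, with the number of genes in brackets), the list median (orange bar) and the median of all genes (dashed line, 0.984). The 10 basement membrane genes lie between 1.81 and 2.57, in the range of the pan-endothelial markers.

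The 8 genes outside the set whose profile was most like its mean were Mcam, Myo1c, Flt4, Unc5b, Fkbp10, Olfml2a, Myh9 and Trp53i11, at root mean square differences from 0.02 to 0.05 over 6 libraries. Mcam, an adhesion molecule of endothelial cells and pericytes, measured 62.0 ± 7.93 FPKM in mutants and 71.3 ± 33.2 FPKM in controls (SD, n = 3 each). Flt4, a VEGF receptor that tip cells express, measured 11.7 ± 1.78 FPKM in mutants and 13.8 ± 6.38 FPKM in controls (SD, n = 3 each). Fkbp10, a chaperone of collagen folding, measured 18.1 ± 2.94 FPKM in mutants and 21.4 ± 9.11 FPKM in controls (SD, n = 3 each). Each of the 8 had a limma adjusted p of 0.9998.

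Other basement membrane and matricellular genes gave no limma call in either direction, with 19 of 25 tested, 14 of them lower and 5 higher in mutants at a median log2 difference of -0.07. Among those not tested, the chains Col4a3, Col4a4, Col4a6 and Lamb3 and the calcium-binding Smoc2 were under 1 FPKM in every library. Among the other laminin chains, Lamb2 measured 10.7 ± 1.29 FPKM in mutants and 11.4 ± 4.39 FPKM in controls, and Lama2 1.72 ± 0.213 FPKM in mutants and 1.90 ± 0.832 FPKM in controls (SD, n = 3 each). Lama1, an alpha chain of early embryonic basement membranes, measured 4.34, 5.70 and 6.86 FPKM in mutants, against 4.57, 5.47 and 6.34 FPKM in controls, so its highest library was mutant replicate 3 and not control replicate 3. Collagen XV, encoded by Col15a1, the relative of collagen XVIII, measured 12.1 ± 2.173 FPKM in mutants and 14.2 ± 5.75 FPKM in controls (SD, n = 3 each).

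By smallest unadjusted p, the list was led by Fbln5, an elastic fibre protein, at 3.73 ± 0.182 FPKM in mutants and 5.02 ± 2.23 FPKM in controls (SD, n = 3 each). Next were Fbln2 with a log2 difference of -0.16, Lamc3, a laminin gamma chain, with 0.18, and Sparc, a collagen-binding matricellular protein, with -0.17. Without control replicate 3 these became 0.04 for Fbln2, 0.45 for Lamc3 and 0.10 for Sparc, and the Fbln5 difference of -0.29 became -0.0031. The difference of Lamc3 was 0.027 without control replicate 2. Over the list, 14 of 19 were higher in mutants without control replicate 3, at a median of 0.13. Control replicate 3 was at least 1.5 times the other controls for 14 of the 19.

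Collagen processing and crosslinking genes gave 0 calls in each direction among 16 of 20 tested, with 9 lower and 7 higher in mutants and a median log2 difference of -0.01. P4ha3, Lox, Loxl1 and Loxl4 were under the filter. The leading gene by unadjusted p was P4ha1, a prolyl hydroxylase subunit that collagen helices need, at 11.8, 16.7 and 17.6 FPKM in mutants, against 14.8, 12.6 and 12.6 FPKM in controls. Its log2 difference was 0.18 with a standard error of 0.154, and mutant replicate 1 lay below all controls. Over single omitted libraries it ran from 0.076, without mutant replicate 3, to 0.34, without mutant replicate 1. P3h1 and Plod2, which hydroxylate collagen prolines and lysines, had log2 differences of 0.14 and 0.08, and Plod1, a lysyl hydroxylase, had -0.12. That of P3h1 ran from 0.016, without control replicate 1, to 0.24, without mutant replicate 1. The sign of Plod2 turned without mutant replicate 3 (-0.01) and with the letter sets as a term (-0.02), and that of Plod1 without control replicate 3 (0.18). Without that library, 13 of 16 were higher in mutants, at a median of 0.15.

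Receptor genes for the basement membrane gave 0 calls in each direction among 17 of 18 tested, with 15 lower and 2 higher in mutants and a median log2 difference of -0.07. Itgb4, the integrin subunit of hemidesmosomes, was under the filter. Itga6, the laminin-binding integrin subunit, measured 19.97 ± 1.79 FPKM in mutants and 24.3 ± 7.62 FPKM in controls, and its partner Itgb1 66.0 ± 5.31 FPKM in mutants and 76.2 ± 21.7 FPKM in controls (SD, n = 3 each). The collagen-binding Itga2 and the fibronectin-binding Itga5 followed, with log2 differences of -0.19 and -0.23. Without control replicate 3 all of these 4 differences were positive, at 0.0017 for Itga6, 0.05 for Itgb1, 0.03 for Itga2 and 0.12 for Itga5. Over the list, 12 of 17 were then higher, at a median of 0.03.

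Proteases of the basement membrane and their inhibitors gave 0 calls in each direction among 17 of 19 tested, with 16 lower and 1 higher in mutants and a median log2 difference of -0.07, where 52.5% of all genes were lower. Without control replicate 3, 10 of 15 with a value were higher, at a median of 0.08. Hpse and Timp4 were under the filter. Ctsb, the lysosomal protease cathepsin B, led by unadjusted p at 39.6, 34.5 and 38.9 FPKM in mutants, against 42.7, 43.1 and 38.9 FPKM in controls. Unlike the basement membrane genes it was not higher in control replicate 3, at 0.907 times the other controls, and its groups overlapped at that library. Timp2, a metalloprotease inhibitor, and Plau, the urokinase gene, had log2 differences of -0.11 and -0.15.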

How the data were processed

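Expression was measured by RNA sequencing of 6 libraries made with Illumina's TruSeq RNA kit, version 2, as the labels' protocols state, and grouped by the genotype in the labels. Each library has a column of FPKM as the authors deposited them. Named per the submitters' processing notes are Cufflinks 2.2.1, DESeq2, STAR 2.5.0b and bedtools 2.17.0, on mm10, the build also called GRCm38, with neither order nor roles given. The annotation and any filter or use of strand were not given in the sources used here. Of the 24421 rows, 4 with a repeated symbol were left out.

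Whole reads could be recovered from the FPKM. Depth was read from miRNA genes of known length, and the 6 values of 16487 of 16487 rows above 0 in every library came out as whole reads, within 0.004 reads plus 1e-07 of the count. Gene positions and lengths came from GENCODE M21 and promoter windows from RefSeq on GRCm38.p6.

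Differences, always mutant minus control, were tested on the log2(FPKM + 1) scale by limma 3.58.1 (R 4.3.3) with a variance prior that follows the mean. The 13619 genes that reached 1 FPKM in 3 or more libraries entered, tests were two-sided, and p-values were adjusted by Benjamini-Hochberg at a threshold of 0.05. This scale understates changes of low genes. Ratios and Anxa3 were tested by exact permutation. The fit was also run on simulated counts that held no differences in cell content between libraries, and its outcome is not reported here. Python 3.11.15, pandas 2.3.3, numpy 2.4.6, scipy 1.17.1 and matplotlib 3.10.9 were used for the rest.

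The 10 genes, the pathway and marker lists and the tests were chosen with earlier results of these data known. Named genes were the 10, Anxa3, 4 other chains (Lamb2, Lama1, Lama2 and Col15a1), up to 4 genes of each pathway list with the smallest unadjusted p, and the 8 genes with the most similar profile. Genes under the filter were named for lists with at most 6. Some genes that this rule names are not reported here. Alternatives were another pseudocount (0.1), no filter or 5 FPKM, scaling by median of ratios or by quantiles, a replicate block, the library letters as a term, subtraction of the pan-endothelial mean, limma voom on recovered reads, a threshold of 0.1 and the omission of each library.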

Additional observations from a re-analysis of the deposited data

How the results depend on the processing

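The count of genes called by limma was 0 over all genes and over the 10 basement membrane genes in every setting run, voom included, at the 0.05 threshold. At an unadjusted p under 0.05 the designed fit found 165 of 13619 genes, none of them among the 10. The number of the 10 with a lower level in mutants was 10 with all libraries, ran from 0 to 10 over single omitted libraries (0 without control replicate 3 and 9 without mutant replicate 2), and was 5 with the pan-endothelial mean subtracted. That subtraction turned the log2 difference to 0.064 for Col4a1, 0.025 for Col4a2, 0.011 for Lama4, 0.089 for Lama5, 0.0059 for Nid1, 0.024 for Plod1, 0.0089 for Ctsb, 0.042 for Timp2 and 0.0019 for Plau, and shifted the median of all genes to 0.14. With the letter sets as a term that of Plod2 turned to -0.021. Over single omitted libraries, log2 differences ran from -0.27 to 0.24 for Col4a1, -0.30 to 0.22 for Col4a2, -0.39 to 0.040 for Col18a1, -0.35 to 0.21 for Lama4, -0.24 to 0.26 for Lama5, -0.33 to 0.20 for Lamb1, -0.34 to 0.11 for Lamc1, -0.32 to 0.20 for Nid1, -0.35 to 0.20 for Nid2 and -0.44 to 0.24 for Hspg2. Other results whose sign turned when a library was left out ran from -0.020 to 0.090 for Lamb1 over Lamc1, -0.018 to 0.088 for Nid1 over Nid2, -0.20 to 0.057 for Col18a1 over Hspg2, -0.28 to 0.044 for Fbln2, -0.33 to 0.10 for Sparc, -0.011 to 0.21 for Plod2, -0.30 to 0.18 for Plod1, -0.39 to 0.0017 for Itga6, -0.32 to 0.047 for Itgb1, -0.31 to 0.033 for Itga2 and -0.44 to 0.12 for Itga5. The cause of these turns was not tested. Anxa3 stayed negative in all settings, from -1.15 to -0.53 over single omitted libraries. Plau gave no value without mutant replicate 3, control replicate 2 or control replicate 3, nor at the filter of 5 FPKM. GENCODE's joined exon lengths, chosen after seeing the data, moved levels and ratios as reported. A length scales a gene alike in all libraries, so the differences of the log2 ratios between groups could not change. The limma fits were not run with these lengths. Each value of the 10 genes rests on at least 1283 reads, so the spread among 3 libraries a group limits the comparison more than depth does.

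With the replicate number as a replicate block, limma called 0 genes, 296 genes had an unadjusted p under 0.05 and the Col4a1 difference was again -0.084. Same-numbered libraries deviated from their group means with correlations of 0.249, -0.151 and 0.390 across genes. Mutant replicates 1 and 3 correlated best with the control of their own number, replicate 1 narrowly (0.231 with control replicate 2). Mutant replicate 2 correlated best with control replicate 3 (0.0837). The numbers were not taken as pairs, since not every number matched, and these correlations do not settle if they are pairs. For the ratios, differences within the replicate number kept every direction and gave 0.039 for Col4a1 over Col4a2.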
